A study of Mus musculus with 12 samples.

Results

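Between E11.5 and E15.5, 1228 of 4859 listed coding genes differed in the same direction by at least 1 on the scale log2(FPKM + 1) in both sorted populations of the mouse cerebral cortex, the Ebf2-EGFP+ and the Ebf2-EGFP- cells. FPKM is the number of fragments per kilobase of transcript, scaled to the size of the library, and a difference of 1 on this log2 scale is the unit of the rule. Of these members, 548 genes had a higher level at E15.5 (11.3% of the list) and 680 a lower level (14%). They are called rising and falling members here, and "changed by" names the measured difference, E15.5 minus E11.5, on this scale. The same rule chose 16 of 200 listed lncRNA transcripts, 12 rising (6%) and 4 falling (2%). Some loci, among them *H19* and *9130024F11Rik*, are members in both the coding and the lncRNA list, so these counts overlap. The mean of E15.5 minus the mean of E11.5 in each population chose the members, so those values are given as a description without a test.

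The study sorted cells by FACS from the cerebral cortex of mouse embryos of the strain Tg(Ebf2-EGFP)FB58Gsat, in which a transgene made by the GENSAT project places EGFP under regulatory sequence of Ebf2. Every group carries this transgene, and no group without it was used here. The 6 groups pair a stage (E11.5, E13.5 or E15.5) with a gate (Ebf2-EGFP positive or Ebf2-EGFP negative), with 2 libraries in each, and each library pooled embryos of several dams. The reporter first marks preplate neurons and later mainly Cajal-Retzius neurons, the early Reelin-secreting cells of the marginal zone, so the Ebf2-EGFP+ gate does not hold the same mixture of cells at each stage. The Ebf2-EGFP- cells are everything else in the dissected tissue, at first mostly progenitors and later also cortical plate neurons. In such bulk samples a smaller share of cells of a type and less RNA per cell cannot be told apart. How deeply each library was sequenced cannot be read from FPKM. The values summed over the listed genes ranged from 111136 to 146703, and libraries of a group correlated at 0.981 to 0.992 across those genes. The list holds only genes that the authors reported as different between the populations, so counts over it do not describe the whole transcriptome.

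Over these days neuroepithelial and radial glial progenitors of the cortex lengthen their cell cycle and turn from expansion to the production of neurons. Newborn neurons leave the cell cycle for good, extend axons and then begin to assemble synapses, for which they need vesicle release proteins, receptors, scaffolds and channels. Early progenitors also carry factors of the embryonic growth programme, among them RNA-binding and chromatin proteins that are later switched off, while the nuclear factor I proteins come on.

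The 4 genes that mark the set were read first. *B3gat1* encodes the glucuronyltransferase that makes the HNK-1 carbohydrate of neural adhesion molecules. In Ebf2-EGFP+ cells it was measured at 34.1 and 31.1 FPKM at E11.5, 49.1 and 54.8 FPKM at E13.5 and 179.5 and 202 FPKM at E15.5. Among Ebf2-EGFP- libraries the values were 7.52 and 8.79 FPKM at E11.5, 11.3 and 17.1 FPKM at E13.5 and 42.4 and 47 FPKM at E15.5. Both E15.5 libraries were above both E11.5 libraries in either population, with a change of 2.51 in Ebf2-EGFP+ and 2.32 in Ebf2-EGFP- cells. *Ppp2r2c*, a regulatory B subunit of protein phosphatase 2A, was much higher in the sorted neurons, at 9.16 and 9.49 FPKM at E11.5, 37.6 and 33.3 FPKM at E13.5 and 65.2 and 81.2 FPKM at E15.5. It was near the floor in Ebf2-EGFP- cells at E11.5, where the series of values was 0.458 and 0.467 FPKM at E11.5, 2.26 and 3.66 FPKM at E13.5 and 8.31 and 10.1 FPKM at E15.5. Its changes on the log2(FPKM + 1) scale were 2.84 in Ebf2-EGFP+ and 2.80 in Ebf2-EGFP- cells, of which the second is understated by the added 1 at such low levels. *Atp6v0c*, the proteolipid subunit of the proton pump that acidifies vesicles, was abundant throughout, with 193 and 163 FPKM at E11.5, 259 and 244 FPKM at E13.5 and 402 and 380.3 FPKM at E15.5 in Ebf2-EGFP+ cells. Among Ebf2-EGFP- cells the libraries read 136 and 118 FPKM at E11.5, 177 and 175 FPKM at E13.5 and 272 and 263 FPKM at E15.5, and its changes of 1.14 in Ebf2-EGFP+ and 1.07 in Ebf2-EGFP- cells lay close to the threshold. *Zic1*, a zinc finger transcription factor of the early forebrain, went the other way. It was measured at 40.5 and 44.4 FPKM at E11.5, 9.34 and 6.64 FPKM at E13.5 and 18 and 17.5 FPKM at E15.5 in Ebf2-EGFP+ cells and at 57.7 and 63.5 FPKM at E11.5, 5.13 and 2.47 FPKM at E13.5 and 6.05 and 3.05 FPKM at E15.5 in Ebf2-EGFP- cells. In both populations all E13.5 and E15.5 libraries were below all E11.5 libraries, and in Ebf2-EGFP+ cells the E15.5 libraries lay above those of E13.5. The falling side of the set, to which *Zic1* belongs, is not covered by a name such as maturation, which describes genes that come on.

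**Figure D1:**
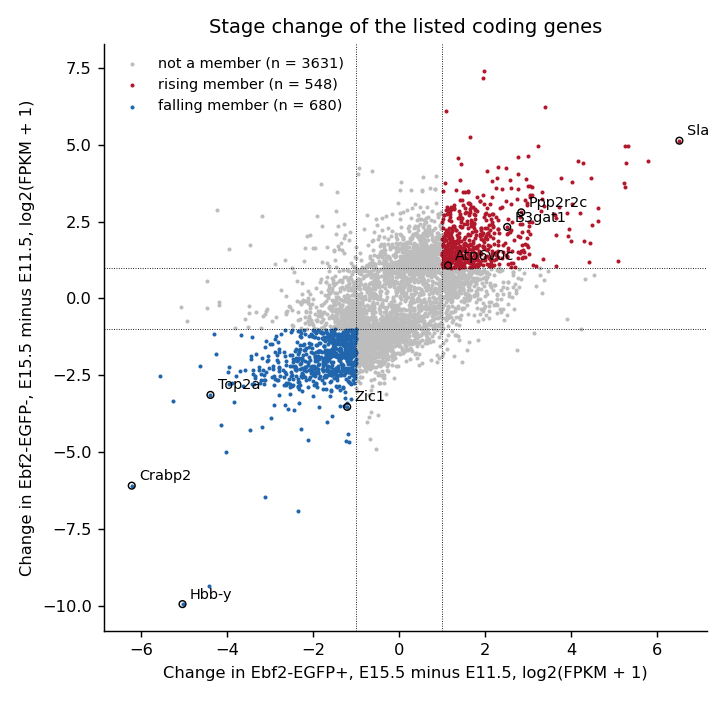
Each point is a listed coding gene, with the change from E11.5 to E15.5 on log2(FPKM + 1) in Ebf2-EGFP+ cells on the horizontal axis and in Ebf2-EGFP- cells on the vertical axis. Dotted lines mark changes of 1 and -1, red points are the 548 rising and blue points the 680 falling members, and named genes are ringed.

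The promoters of falling genes are shown because cell cycle genes, which lead that side, share short promoter elements. RefSeq promoters of build GRCm38.p6 were matched by symbol for 397 of 548 rising and 518 of 680 falling members and for 3558 of all 4859 listed genes, taking the most upstream start of each gene and the 250 bases before it. The elements searched, on both strands, were the CCAAT box (CCAAT), the cell cycle genes homology region, or CHR (TTTGAA), and an E2F site (TTTCCCGC, TTTGGCGC, TTTCGCGC or TTTGCCGC). The 4 mitosis genes with the largest shared fall whose window lies outside the annotated gene are *Top2a* (topoisomerase II alpha, chr11:99024190-99024439, minus strand), *Birc5* (survivin, chr11:117848987-117849236, plus strand), *Nusap1* (a spindle protein, chr2:119618048-119618297, plus strand) and *Mki67* (the Ki-67 protein, chr7:135716380-135716629, minus strand). *Ppp2r2c* (chr5:36868260-36868509, plus strand) and *Dync1i1*, which encodes a dynein chain (chr6:5725389-5725638, plus strand), are rising members. Capitals mark matches to these elements, and each sequence ends at the base before the start site.
Top2a: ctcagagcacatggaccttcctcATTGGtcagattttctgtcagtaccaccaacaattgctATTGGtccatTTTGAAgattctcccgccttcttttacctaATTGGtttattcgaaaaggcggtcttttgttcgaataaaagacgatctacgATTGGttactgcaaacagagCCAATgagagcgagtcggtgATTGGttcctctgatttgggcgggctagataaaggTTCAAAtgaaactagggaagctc
Birc5: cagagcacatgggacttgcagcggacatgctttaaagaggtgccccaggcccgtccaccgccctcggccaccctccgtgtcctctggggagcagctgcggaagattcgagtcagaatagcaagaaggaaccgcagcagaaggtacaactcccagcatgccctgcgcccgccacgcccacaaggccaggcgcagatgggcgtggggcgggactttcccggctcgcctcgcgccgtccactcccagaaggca
Nusap1: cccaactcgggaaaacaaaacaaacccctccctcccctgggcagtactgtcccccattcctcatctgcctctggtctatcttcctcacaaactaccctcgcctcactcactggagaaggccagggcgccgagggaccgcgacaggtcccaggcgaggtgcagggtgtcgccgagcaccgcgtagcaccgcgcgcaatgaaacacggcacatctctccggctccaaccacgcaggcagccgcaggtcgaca
Mki67: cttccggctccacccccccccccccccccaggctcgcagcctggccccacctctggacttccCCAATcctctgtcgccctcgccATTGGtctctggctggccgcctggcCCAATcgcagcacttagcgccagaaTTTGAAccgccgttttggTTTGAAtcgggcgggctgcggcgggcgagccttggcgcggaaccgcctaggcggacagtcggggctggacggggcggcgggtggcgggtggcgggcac
Ppp2r2c: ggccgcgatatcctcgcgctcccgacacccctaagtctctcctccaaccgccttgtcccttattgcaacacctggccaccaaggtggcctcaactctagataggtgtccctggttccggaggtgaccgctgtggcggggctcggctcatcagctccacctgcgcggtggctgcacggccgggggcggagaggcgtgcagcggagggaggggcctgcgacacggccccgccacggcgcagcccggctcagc
Dync1i1: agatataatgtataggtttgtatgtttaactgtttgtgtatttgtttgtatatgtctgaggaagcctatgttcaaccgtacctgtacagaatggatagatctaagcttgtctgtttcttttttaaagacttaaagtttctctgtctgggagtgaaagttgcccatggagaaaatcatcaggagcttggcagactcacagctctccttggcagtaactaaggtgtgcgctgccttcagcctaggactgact

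*Top2a* held 6 CCAAT boxes and 2 CHR elements in this window and *Mki67* held 3 and 2, while *Birc5*, *Nusap1*, *Ppp2r2c* and *Dync1i1* held none of these elements in the 250 bases. A CCAAT box was present in 48.5% of the falling and 27% of the rising promoters, beside 36.1% of the listed genes and 34.5% of the 27018 promoters of the reference. A CHR was present in 18.5%, 8.31%, 10% and 16.3% of the same 4 sets. An E2F site was rare, with 5.21%, 1.01%, 4.22% and 1.92%. Among the 34 falling mitosis genes with a promoter, 25 held a CCAAT box and 10 a CHR. Outside the mitosis and DNA replication lists the falling members still held a CCAAT box in 46.2% of 468 promoters. Beyond the capitalised elements, the half-site of nuclear factor I (TTGGCA) was found in 10.1% of rising and 9.27% of falling promoters, and a cyclic AMP response element (TGACGTCA) in 2.52% and 1.74%. Among the printed windows, where the half-site is in lower case, *Dync1i1* held it 2 times and the others 0 times. These matches describe letters in a window and not bound sites.

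The changes of the members were moderate in most and large in few. The median change of the rising members was 1.64 in Ebf2-EGFP+ and 1.79 in Ebf2-EGFP- cells, and that of the falling members was -1.60 and -1.89, beside medians of -0.18 and -0.32 over all listed genes. Changes of at least 2 in both populations were found in 104 rising and 139 falling members, and of at least 3 in 22 and 11. All libraries of one stage lay on one side of all libraries of the other in both populations for 548 of 548 rising and 678 of 680 falling members, beside 83.8% of all listed genes. These are the libraries that chose the members, so the count is nearly fixed by the rule. The same holds wherever a lack of overlap between E11.5 and E15.5 is given for a single member. Agreement in direction was not general. Another 2473 genes passed 1 in one population only, 17 were higher by at least 1 in Ebf2-EGFP+ and lower by at least 1 in Ebf2-EGFP- cells, and 43 the reverse. Across the 4859 genes the changes in the 2 populations correlated at r = 0.65 and rho = 0.66, a description over genes that come from the same 8 libraries. *Commd3* and *Gramd1b* were the rising members nearest the threshold, and *Lamb2* and *Tgfbr1* the nearest falling ones, all within the second decimal of 1 in one population. Just outside were *Gdap1* and *Ccbe1* on the rising and *Wfdc2* and *Rnaset2a* on the falling side, so members and genes left out meet at the threshold without a gap. A common scaling of the libraries moved this border. Median-of-ratios factors raised the median change of all listed genes by 0.14 in Ebf2-EGFP+ and 0.22 in Ebf2-EGFP- cells, which gave 746 rising members (all 548 among them) and 501 falling ones (all among the 680). Measured against the median of all listed genes instead, 778 genes were rising and 467 falling.

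The 12 rising members with the largest smaller change of the 2 populations were *Sla*, *Tiam2*, *Ndrg1*, *Dync1i1*, *Nfix*, *Camk2b*, *Nos1*, *Cdh13*, *Rlbp1*, *Clstn2*, *Ppp1r1b* and *Mpped1*. *Sla*, a Src-like adaptor protein encoded on chromosome 15 of GRCm38 from 66780819 to 66831829, was close to absent at E11.5. Its values were 0.0908 and 0.0577 FPKM at E11.5, 19.5 and 20.9 FPKM at E13.5 and 79.3 and 119.6 FPKM at E15.5 in Ebf2-EGFP+ cells. The Ebf2-EGFP- libraries read 0.166 and 0.168 FPKM at E11.5, 1.63 and 5.26 FPKM at E13.5 and 37.6 and 42.1 FPKM at E15.5, and no library of a later stage overlapped E11.5 in either population. *Tiam2* (chromosome 17, 3326573 to 3531344), an exchange factor for the GTPase Rac, behaved alike in both, with 0.575 and 1.47 FPKM at E11.5, 52 and 63.5 FPKM at E13.5 and 77.8 and 77.4 FPKM at E15.5 in Ebf2-EGFP+ cells and 1.28 and 1.76 FPKM at E11.5, 26.5 and 48.8 FPKM at E13.5 and 73.1 and 81.1 FPKM at E15.5 in Ebf2-EGFP- cells. Most of its change had taken place by E13.5. *Ndrg1* went from 0.983 and 1.04 FPKM at E11.5 to 69.8 and 81.1 FPKM at E15.5 in Ebf2-EGFP+ cells and from 0.55 and 0.663 to 44.8 and 53.5 FPKM in Ebf2-EGFP- cells. *Dync1i1* (chromosome 6, 5725639 to 6028039), the intermediate chain of the motor that carries cargo toward the cell body, had 2.15 and 1.67 FPKM at E11.5, 23.6 and 28.4 FPKM at E13.5 and 134 and 188 FPKM at E15.5 in Ebf2-EGFP+ cells. Its E13.5 level was still low in the other gate, where the libraries read 0.481 and 0.583 FPKM at E11.5, 0.874 and 2.22 FPKM at E13.5 and 24.3 and 44.7 FPKM at E15.5. Most of the others were enzymes or adhesion proteins of neurons. *Nos1*, neuronal nitric oxide synthase, had changes of 4.16 in Ebf2-EGFP+ and 4.47 in Ebf2-EGFP- cells. *Cdh13*, a cadherin held in the membrane by a lipid anchor, had 4.45 in Ebf2-EGFP+ and 3.90 in Ebf2-EGFP- cells. *Ppp1r1b*, a dopamine-regulated inhibitor of protein phosphatase 1, had 5.23 in Ebf2-EGFP+ and 3.74 in Ebf2-EGFP- cells. Not all values were tight. *Clstn2*, a calsyntenin of the synaptic membrane, went from 6.84 and 6.26 to 65.7 and 155 FPKM in Ebf2-EGFP+ cells, with the E15.5 libraries far apart from each other. *Rlbp1*, which binds retinaldehyde, was the only one of the 12 with higher levels in Ebf2-EGFP- cells in every stage, from 2.69 and 3.08 to 54.5 and 50.5 FPKM there and from 0.229 and 0.419 to 21.4 and 19.5 FPKM in Ebf2-EGFP+ cells.

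**Figure D2:**
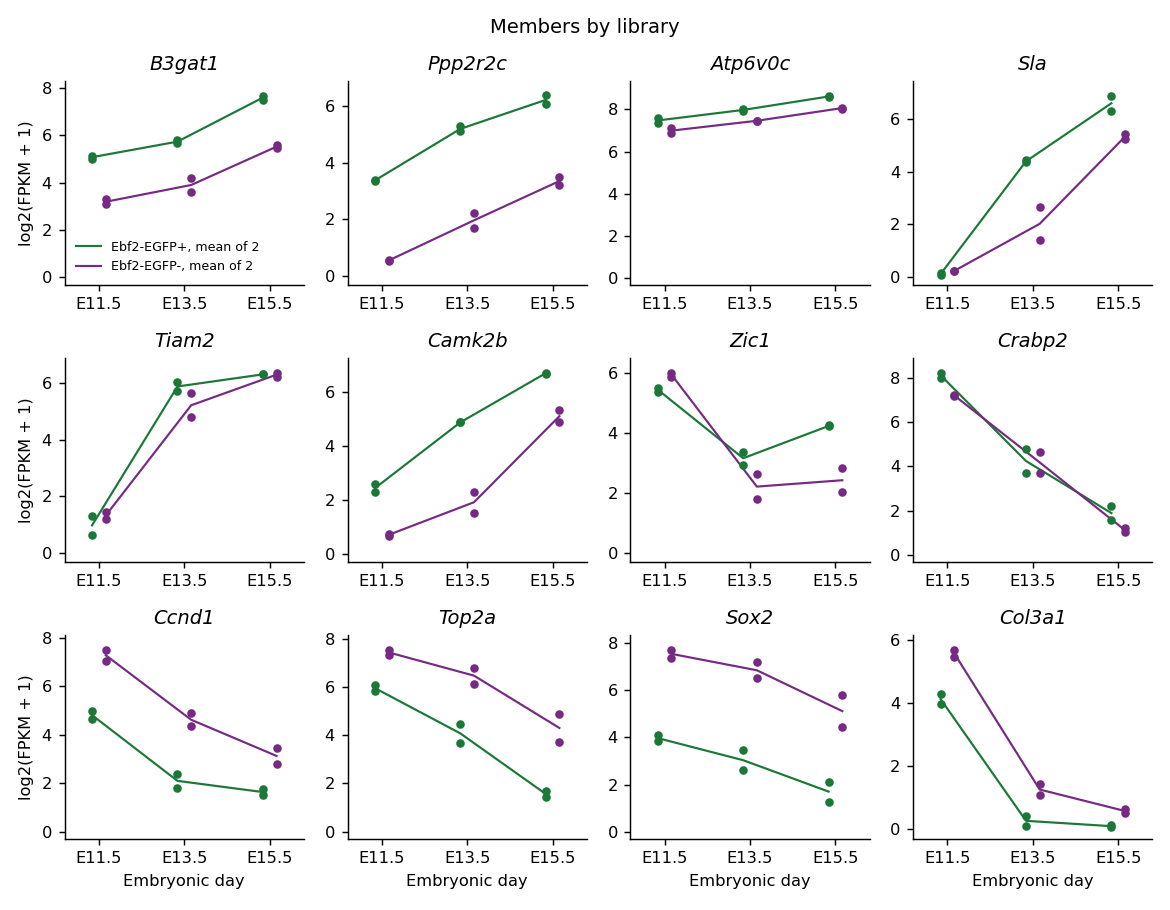
Each panel shows a member, with the level in log2(FPKM + 1) against the embryonic day. Points are single libraries, 2 per stage, and lines join the means of Ebf2-EGFP+ (green) and Ebf2-EGFP- cells (purple). *B3gat1*, *Ppp2r2c*, *Atp6v0c*, *Sla*, *Tiam2* and *Camk2b* are rising and *Zic1*, *Crabp2*, *Ccnd1*, *Top2a*, *Sox2* and *Col3a1* falling members. The E11.5 and E15.5 libraries of a population do not overlap in any panel, which the rule that chose the members nearly ensures.

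Many listed genes of the synapse were on the rising side. Of 44 listed genes of synaptic vesicles and exocytosis, 18 were rising and 0 falling members, with median changes over the 44 of 0.76 in Ebf2-EGFP+ and 1.87 in Ebf2-EGFP- cells. The remainder mostly passed 1 in Ebf2-EGFP- cells only, since 34 of the 44 were higher by at least 1 there and 18 were in Ebf2-EGFP+ cells. Lower by at least 1 were 3 of the 44 in Ebf2-EGFP+ and 0 in Ebf2-EGFP- cells. *Cplx1*, the complexin that clamps and triggers vesicle fusion, was measured at 9.27 and 8.8 FPKM at E11.5, 36.4 and 38.8 FPKM at E13.5 and 74.2 and 75.7 FPKM at E15.5 in Ebf2-EGFP+ cells and at 2.85 and 2.49 FPKM at E11.5, 5.86 and 9.97 FPKM at E13.5 and 29.3 and 36.1 FPKM at E15.5 in Ebf2-EGFP- cells. No library of E11.5 overlapped one of E15.5. *Sh3gl2*, the endophilin of vesicle recycling, changed by 2.85 in Ebf2-EGFP+ and 2.41 in Ebf2-EGFP- cells, *Syngr3*, a vesicle membrane protein, by 2.19 in Ebf2-EGFP+ and 2.34 in Ebf2-EGFP- cells, and *Syn2*, a synapsin that tethers vesicles, by 1.80 in Ebf2-EGFP+ and 2.85 in Ebf2-EGFP- cells. *Snap25*, *Stx1a*, *Rab3a*, *Sv2a*, *Syn1* and *Syt5* were members as well.

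On the postsynaptic side, 16 of 35 listed scaffold and adhesion genes were rising and 2 falling members. In Ebf2-EGFP+ cells 18 of the 35 were higher and 3 lower by at least 1, and in Ebf2-EGFP- cells 23 and 2. *Camk2b*, the beta subunit of the calcium and calmodulin-dependent kinase of the synapse, had 4.96 and 3.88 FPKM at E11.5, 28.3 and 28.4 FPKM at E13.5 and 105 and 102 FPKM at E15.5 in Ebf2-EGFP+ cells and 0.571 and 0.671 FPKM at E11.5, 1.85 and 3.95 FPKM at E13.5 and 28.4 and 39.4 FPKM at E15.5 in Ebf2-EGFP- cells. Its alpha partner *Camk2a* was one of the 2 falling members, at 8.57 and 8.78 FPKM at E11.5 and 3.69 and 2.91 FPKM at E15.5 in Ebf2-EGFP+ cells and 7.17 and 8.81 FPKM at E11.5 and 1.29 and 1.03 FPKM at E15.5 in Ebf2-EGFP- cells. The subunits of this kinase thus had opposite directions over these days. The other falling member was *Cntnap2*, a neurexin-related adhesion protein of axons, with changes of -2.10 in Ebf2-EGFP+ and -1.90 in Ebf2-EGFP- cells. The scaffolds *Dlg2* (2.35 in Ebf2-EGFP+ and 2.94 in Ebf2-EGFP- cells) and *Shank1* (1.90 in Ebf2-EGFP+ and 2.30 in Ebf2-EGFP- cells) and the adhesion protein *Lrrtm1* (2.12 in Ebf2-EGFP+ and 2.02 in Ebf2-EGFP- cells) were rising. Among 27 receptor genes for glutamate, GABA and glycine 10 were rising and 0 falling. In Ebf2-EGFP+ cells 17 of the 27 were higher and 3 lower by at least 1, and in Ebf2-EGFP- cells 14 and 0. *Grin1*, the obligatory subunit of NMDA receptors, went from 2.19 and 2.73 to 18.2 and 22.8 FPKM in Ebf2-EGFP+ cells and from 0.349 and 0.487 to 6 and 8.13 FPKM in Ebf2-EGFP- cells. *Grin2b*, the subunit that pairs with it early in development, went from 1.26 and 1.98 to 15.9 and 18.6 FPKM and from 0.154 and 0.174 to 4.88 and 8.14 FPKM. The libraries of these stages did not overlap for either subunit. *Gria1*, an AMPA receptor subunit, changed by 2.58 in Ebf2-EGFP+ and 3.86 in Ebf2-EGFP- cells, and *Glra2*, the glycine receptor subunit of the fetal brain, by 2.49 in Ebf2-EGFP+ and 3.16 in Ebf2-EGFP- cells. Of 38 voltage-gated channel genes 9 were rising and 0 falling, with median changes of 0.91 in Ebf2-EGFP+ and 1.19 in Ebf2-EGFP- cells over all 38. In Ebf2-EGFP+ cells 16 of the 38 were higher and 2 lower by at least 1, and in Ebf2-EGFP- cells 22 and 3. *Kcnq3*, a subunit of the potassium channel that carries the M-current, changed by 3.33 in Ebf2-EGFP+ and 3.22 in Ebf2-EGFP- cells, the calcium channel gene *Cacna1c* by 1.97 in Ebf2-EGFP+ and 1.66 in Ebf2-EGFP- cells and the sodium channel subunits *Scn2a1* and *Scn3b* by 1.64 in Ebf2-EGFP+ and 1.77 in Ebf2-EGFP- cells and by 1.61 in Ebf2-EGFP+ and 3.09 in Ebf2-EGFP- cells, in that order.

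Smaller groups of the rising side held the marker genes and their relatives. Of 17 glycosyltransferases of the HNK-1, sialic acid and ganglioside pathways 6 were rising and 0 falling members. In Ebf2-EGFP+ cells 9 of the 17 were higher and 1 lower by at least 1, and in Ebf2-EGFP- cells 11 and 0. *B3gat2*, the second glucuronyltransferase of the HNK-1 pathway, stood at 0.813 and 1.07 FPKM at E11.5, 4.36 and 5.64 FPKM at E13.5 and 18.3 and 11.4 FPKM at E15.5 in Ebf2-EGFP+ cells and 0.812 and 0.861 FPKM at E11.5, 2.16 and 3.16 FPKM at E13.5 and 5.64 and 4.14 FPKM at E15.5 in Ebf2-EGFP- cells, well below *B3gat1*. Both enzymes of this step were therefore members. *St6galnac5*, which adds sialic acid to gangliosides, changed by 2.07 in Ebf2-EGFP+ and 1.61 in Ebf2-EGFP- cells, and *Chst1*, a carbohydrate sulfotransferase, by 2.14 in Ebf2-EGFP+ and 1.23 in Ebf2-EGFP- cells. Among 12 protein phosphatase subunits 4 were rising, *Ppp1r1b*, *Ppp2r2c*, its relative *Ppp2r2b* (2.04 in Ebf2-EGFP+ and 4.14 in Ebf2-EGFP- cells) and the inhibitor *Ppp1r14c* (1.67 in Ebf2-EGFP+ and 2.44 in Ebf2-EGFP- cells). Of 14 genes of the proton pump and the lysosome 4 were rising, *Atp6v0c*, the pump subunits *Atp6v0e2* (1.60 in Ebf2-EGFP+ and 1.72 in Ebf2-EGFP- cells) and *Atp6v1g2* (1.33 in Ebf2-EGFP+ and 1.32 in Ebf2-EGFP- cells) and the protease gene *Ctsf* (1.19 in Ebf2-EGFP+ and 1.19 in Ebf2-EGFP- cells). The lysosomal peptidase gene *Tpp1* was falling, by -1.14 in Ebf2-EGFP+ and -1.62 in Ebf2-EGFP- cells. Of 39 cytoskeletal and transport genes 4 were rising, a share no higher than the 11.3% of all listed genes. In Ebf2-EGFP- cells 27 of the 39 were higher by at least 1. In Ebf2-EGFP+ cells 4 were higher and 3 lower by at least 1. *Mapt*, the microtubule protein tau, had 90.01 and 84.3 FPKM at E11.5 and 442 and 414 FPKM at E15.5 in Ebf2-EGFP+ cells and 12.7 and 12.2 FPKM at E11.5 and 178 and 228 FPKM at E15.5 in Ebf2-EGFP- cells. *Gap43*, the growth cone protein, changed by 1.22 in Ebf2-EGFP+ and 1.77 in Ebf2-EGFP- cells and *Dpysl5*, a collapsin response mediator, by 1.04 in Ebf2-EGFP+ and 2.01 in Ebf2-EGFP- cells. *Tppp3*, a tubulin-binding protein, was falling with -3.44 in Ebf2-EGFP+ and -1.25 in Ebf2-EGFP- cells.

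Transcription factors of neurons and the nuclear factor I genes were also on this side. *Nfix*, *Nfib* and *Nfia*, the nuclear factor I proteins that accompany the switch of progenitors to later fates, were the 3 rising members of the 24 early-stage progenitor factors, a list that also names what replaces the early factors. *Nfix* had 8.58 and 16.5 FPKM at E11.5, 179 and 293 FPKM at E13.5 and 628 and 399 FPKM at E15.5 in Ebf2-EGFP+ cells and 14.1 and 16.3 FPKM at E11.5, 69.2 and 117 FPKM at E13.5 and 398 and 288 FPKM at E15.5 in Ebf2-EGFP- cells. *Nfib* changed by 2.75 in Ebf2-EGFP+ and 3.55 in Ebf2-EGFP- cells and *Nfia* by 2.04 in Ebf2-EGFP+ and 2.08 in Ebf2-EGFP- cells, and every E13.5 library lay above both E11.5 libraries for all 3. At E13.5, 2 of these 3 genes were called higher in Ebf2-EGFP+ than in Ebf2-EGFP- cells and 0 lower. Of 19 cortical plate and subplate markers 7 were rising and 2 falling, *Fezf1* and *Foxp2*. In Ebf2-EGFP+ cells 10 of the 19 were higher and 6 lower by at least 1. In Ebf2-EGFP- cells 11 were higher and 4 lower by at least 1. *Neurod6*, a proneural factor of excitatory neurons, was nearly absent from Ebf2-EGFP- cells at E11.5, with 0.779 and 1.54 FPKM at E11.5, 257 and 322 FPKM at E13.5 and 377 and 342 FPKM at E15.5. Ebf2-EGFP+ cells already expressed it, with 69 and 97 FPKM at E11.5, 472 and 436 FPKM at E13.5 and 369 and 283 FPKM at E15.5. *Neurod2* followed the same order, with changes of 1.96 in Ebf2-EGFP+ and 7.18 in Ebf2-EGFP- cells. *Mef2c*, a transcription factor of maturing neurons, changed by 2.99 in Ebf2-EGFP+ and 3.64 in Ebf2-EGFP- cells. The summed level of these 19 markers in Ebf2-EGFP+ cells was 569.5 to 624 FPKM at E11.5. It was 1208 to 1218 FPKM at E13.5 and 1029 to 1500.2 FPKM at E15.5. The part of such neurons in the neuronal members was not tested. Cajal-Retzius markers, which the Ebf2-EGFP+ gate should hold, summed to 699 to 747, 449.7 to 499 and 792 to 1395 FPKM at the successive stages in Ebf2-EGFP+ cells and to 23 to 23.5, 81.3 to 97.6 and 67.4 to 88.7 FPKM in Ebf2-EGFP- cells. The higher sum at E15.5 was not shared by most of these markers. Their median change was -0.58 for the Ebf2-EGFP+ gate, where 2 were higher and 4 lower by at least 1. For the other gate the median was -0.3, with 3 higher and 2 lower by at least 1. Of these 12 markers 1 was a member, *Reln*, which encodes the secreted signal Reelin and gave a large part of the Ebf2-EGFP+ sum at E15.5. It was measured at 75.9 and 76.3 FPKM at E11.5, 125 and 187 FPKM at E13.5 and 399 and 925 FPKM at E15.5 in Ebf2-EGFP+ cells and at 2.98 and 2.79 FPKM at E11.5, 2.77 and 4.22 FPKM at E13.5 and 13.7 and 10.6 FPKM at E15.5 in Ebf2-EGFP- cells.

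The falling side was led by the cell cycle. Of 46 listed genes of mitosis and cyclins 42 were falling and 0 rising members, with median changes of -2.92 in Ebf2-EGFP+ and -2.49 in Ebf2-EGFP- cells. Their summed level was 2829 to 3120.4 FPKM at E11.5 and 617 to 965 FPKM at E15.5 in Ebf2-EGFP- cells, and 1134 to 1257 and 249 to 283 FPKM in Ebf2-EGFP+ cells. *Ccnd1*, the cyclin that drives entry into the cycle, had 30.7 and 24 FPKM at E11.5, 4.24 and 2.49 FPKM at E13.5 and 2.34 and 1.87 FPKM at E15.5 in Ebf2-EGFP+ cells and 182 and 133 FPKM at E11.5, 28.9 and 19.3 FPKM at E13.5 and 9.9958 and 5.94 FPKM at E15.5 in Ebf2-EGFP- cells. *Top2a* (chromosome 11, 98992943 to 99024189), which untangles DNA before division and whose promoter is printed above, had 66.6 and 55.6 FPKM at E11.5, 21 and 11.8 FPKM at E13.5 and 2.17 and 1.74 FPKM at E15.5 in Ebf2-EGFP+ cells. Its Ebf2-EGFP- libraries read 185 and 159 FPKM at E11.5, 110.3 and 69.4 FPKM at E13.5 and 28 and 12.3 FPKM at E15.5, so even the lowest E11.5 library lay above the highest of E15.5. *Birc5*, a subunit of the chromosomal passenger complex, changed by -3.63 in Ebf2-EGFP+ and -2.84 in Ebf2-EGFP- cells, the kinetochore motor gene *Cenpe* by -3.38 in Ebf2-EGFP+ and -2.79 in Ebf2-EGFP- cells, *Nusap1* by -3.43 in Ebf2-EGFP+ and -2.77 in Ebf2-EGFP- cells and *Mki67* by -3.90 in Ebf2-EGFP+ and -2.75 in Ebf2-EGFP- cells. The kinases *Plk1*, *Aurka*, *Aurkb*, *Bub1* and *Cdk1* and the cyclins *Ccna2*, *Ccnb1* and *Ccnb2* were members too. DNA replication genes differed from this in one population. All 42 listed were lower by at least 1 in Ebf2-EGFP- cells, but 18 were in Ebf2-EGFP+ cells, which left 18 members. *Gmnn*, geminin, which blocks a second round of replication, changed by -2.50 in Ebf2-EGFP+ and -2.86 in Ebf2-EGFP- cells, *Rrm2*, of ribonucleotide reductase, by -2.35 in Ebf2-EGFP+ and -2.89 in Ebf2-EGFP- cells, the helicase subunit gene *Mcm2* by -2.41 in Ebf2-EGFP+ and -2.34 in Ebf2-EGFP- cells and *Uhrf1*, which maintains DNA methylation, by -2.33 in Ebf2-EGFP+ and -2.94 in Ebf2-EGFP- cells. Of 20 listed ribosome biogenesis and translation genes none was a member, with median changes of 0.13 in Ebf2-EGFP+ and -0.93 in Ebf2-EGFP- cells.

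Genes of progenitor identity were on the same side. Of 14 radial glia markers 9 were falling members and 0 rising. In Ebf2-EGFP+ cells 9 of the 14 were lower and 1 higher by at least 1, and in Ebf2-EGFP- cells 10 and 1. *Sox2*, the factor of neural stem cells, had 209.7 and 165 FPKM at E11.5, 144 and 90.5 FPKM at E13.5 and 55 and 20.5 FPKM at E15.5 in Ebf2-EGFP- cells and 16.2 and 13.3 FPKM at E11.5, 10.03 and 5.09 FPKM at E13.5 and 3.37 and 1.42 FPKM at E15.5 in Ebf2-EGFP+ cells. Its level in the sorted neurons was low throughout but not at 0. *Nes* changed by -1.96 in Ebf2-EGFP+ and -2.51 in Ebf2-EGFP- cells, *Notch1* by -2.34 in Ebf2-EGFP+ and -1.67 in Ebf2-EGFP- cells and *Prom1* by -2.40 in Ebf2-EGFP+ and -1.65 in Ebf2-EGFP- cells. The summed level of the radial glia markers in Ebf2-EGFP+ cells was 446 to 473 FPKM at E11.5, 217 to 245 FPKM at E13.5 and 97.5 to 162 FPKM at E15.5, beside 1507 to 1837, 1189 to 1765 and 515 to 909 FPKM in Ebf2-EGFP- cells. Progenitor markers in the Ebf2-EGFP+ libraries were thus lower at the stage where mitosis genes were, and their part in the values of those genes was not tested. Intermediate progenitor markers were no members. Of 10, 9 were lower by at least 1 in Ebf2-EGFP+ cells and 6 higher by at least 1 in Ebf2-EGFP- cells.

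Of the 24 early-stage progenitor factors 15 were falling. *Crabp2* (chromosome 3, 87948666 to 87953376), which carries retinoic acid to the nucleus, had the largest shared fall of all members. It was measured at 299.6 and 256 FPKM at E11.5, 26.5 and 12.1 FPKM at E13.5 and 3.66 and 1.96 FPKM at E15.5 in Ebf2-EGFP+ cells and at 146 and 147 FPKM at E11.5, 24.4 and 12 FPKM at E13.5 and 1.31 and 1.04 FPKM at E15.5 in Ebf2-EGFP- cells, nearly the same course in both. *Hmga2*, a chromatin protein of young stem cells, was far higher in Ebf2-EGFP- cells, with 161 and 117 FPKM at E11.5, 9.6 and 4.69 FPKM at E13.5 and 0.839 and 0.378 FPKM at E15.5 there and 9.19 and 10.5 FPKM at E11.5, 0.909 and 0.64 FPKM at E13.5 and 0.212 and 0.264 FPKM at E15.5 in Ebf2-EGFP+ cells. *Dlk1*, an imprinted ligand-like protein of the Notch family, changed by -4.16 in Ebf2-EGFP+ and -4.12 in Ebf2-EGFP- cells. *H19*, an imprinted RNA of fetal growth that both tables list, changed by -3.85 in Ebf2-EGFP+ and -3.38 in Ebf2-EGFP- cells in the coding table. *Igf2*, *Peg10*, *Igf2bp1*, *Igf2bp2* and *Igf2bp3*, which belong to growth factor signalling, imprinted genes and RNA-binding proteins of the embryo, were falling members as well. *Metrn*, a secreted protein of progenitors, changed by -2.99 in Ebf2-EGFP+ and -3.89 in Ebf2-EGFP- cells. Of 37 forebrain patterning factors 14 were falling and 0 rising. In Ebf2-EGFP+ cells 18 of the 37 were lower and 1 higher by at least 1, and in Ebf2-EGFP- cells 28 and 1. *Otx2*, a head selector gene, was measured at 26.7 and 29.4 FPKM at E11.5, 0.695 and 0.0839 FPKM at E13.5 and 0.25 and 0.121 FPKM at E15.5 in Ebf2-EGFP- cells and at 4.5 and 4.49 FPKM at E11.5, 0.288 and 0.0231 FPKM at E13.5 and 0.363 and 0.155 FPKM at E15.5 in Ebf2-EGFP+ cells. *Wnt8b*, a signal of the cortical hem, changed by -2.29 in Ebf2-EGFP+ and -4.26 in Ebf2-EGFP- cells and *Dmrta1*, a factor of the early cortex, by -2.64 in Ebf2-EGFP+ and -2.82 in Ebf2-EGFP- cells. *Fezf1*, a zinc finger factor, had 39.2 and 36.3 FPKM at E11.5 and 0 and 0.016 FPKM at E15.5 in Ebf2-EGFP+ cells and 10.2 and 8.34 and 0.0164 and 0 FPKM in Ebf2-EGFP- cells. All of its E13.5 and E15.5 libraries were under 1 FPKM in both populations.

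**Figure D3:**
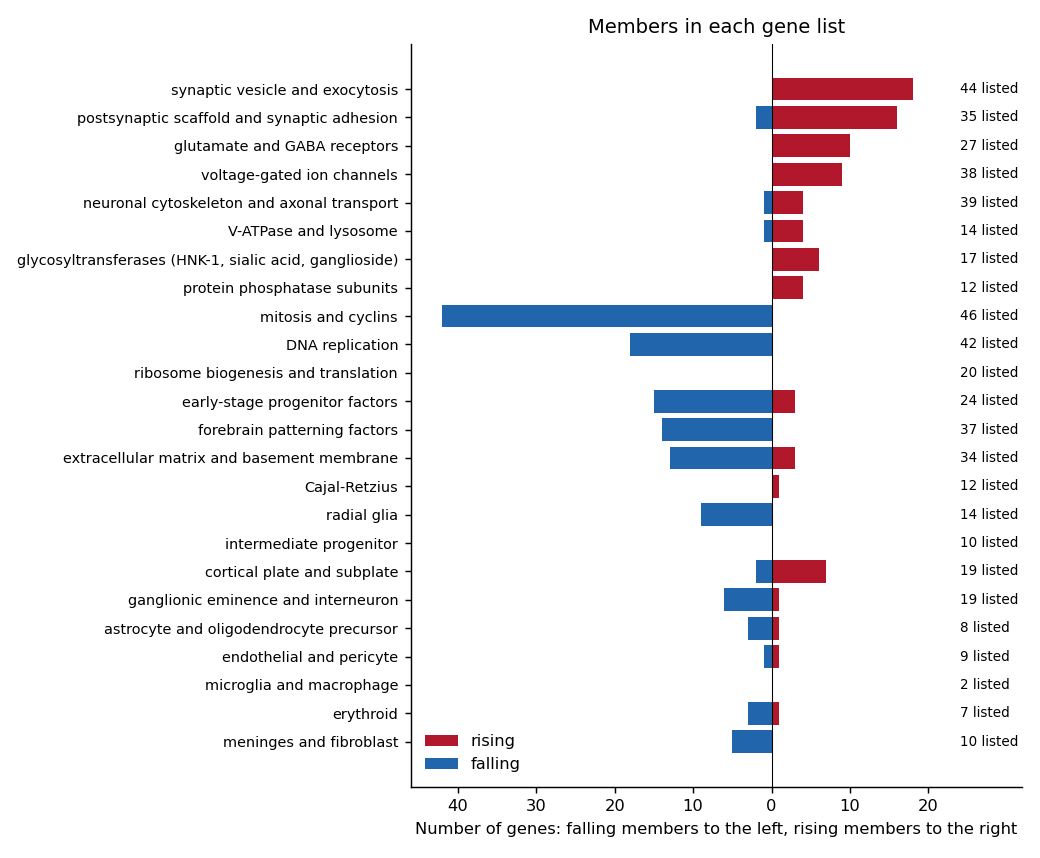
Bars give the number of members in each gene list, rising to the right in red and falling to the left in blue, and the text at the right gives how many genes of the list are in the table. The largest bars are the 42 falling mitosis genes, the 18 falling DNA replication genes and the 18 rising vesicle genes.

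Markers of cells that are neither progenitors nor cortical neurons were among the members. Of 34 extracellular matrix genes 13 were falling and 3 rising, and the rising share was no higher than the 11.3% of all listed genes. *Col3a1*, a fibrillar collagen of connective tissue, had 14.7 and 18.3 FPKM at E11.5, 0.337 and 0.0858 FPKM at E13.5 and 0.0483 and 0.0947 FPKM at E15.5 in Ebf2-EGFP+ cells and 50.7 and 42.8 FPKM at E11.5, 1.71 and 1.12 FPKM at E13.5 and 0.416 and 0.575 FPKM at E15.5 in Ebf2-EGFP- cells. *Col1a2* changed by -3.48 in Ebf2-EGFP+ and -4.28 in Ebf2-EGFP- cells and *Col1a1* by -2.58 in Ebf2-EGFP+ and -3.59 in Ebf2-EGFP- cells, and *Gpc3*, a glypican, by -2.92 in Ebf2-EGFP+ and -3.48 in Ebf2-EGFP- cells. Of 10 listed markers of meninges and fibroblasts, which include these 3 collagen genes, 5 were falling members, and their summed level was 128 to 150.0 FPKM at E11.5 and 11.6 to 16.4 FPKM at E15.5 in Ebf2-EGFP- cells and 47.4 to 53.8 and 11.2 to 47.1 FPKM in Ebf2-EGFP+ cells. The part of such cells in the values of matrix genes was not tested. The rising matrix genes were different in kind, the brain proteoglycans *Bcan* (1.21 in Ebf2-EGFP+ and 2.91 in Ebf2-EGFP- cells) and *Cspg5* (3.18 in Ebf2-EGFP+ and 1.06 in Ebf2-EGFP- cells) and the glycoprotein gene *Tnr* (2.81 in Ebf2-EGFP+ and 1.99 in Ebf2-EGFP- cells). Embryonic globins were among the largest changes. *Hbb-y* was measured at 737 and 1589 FPKM at E11.5, 4.07 and 3.3 FPKM at E13.5 and 0.0854 and 0.123 FPKM at E15.5 in Ebf2-EGFP- cells, and at 55 and 18.4 FPKM at E11.5, 3.33 and 0.992 FPKM at E13.5 and 0 and 0 FPKM at E15.5 in Ebf2-EGFP+ cells, where it is listed at 0 at E15.5. *Hba-x* and *Hbb-bh1* were falling too, while the adult genes *Hbb-b1* and *Beta-s* were rising, and the near-identical copies within the globin families can share reads, so these values are uncertain. *Hbb-b1* had 0.00091 and 42.2 FPKM in the Ebf2-EGFP- libraries at E11.5 and 196 and 1196 FPKM at E15.5, so single libraries decide its values. The 7 erythroid markers summed to 1347 to 2884 FPKM at E11.5 and 305 to 1422 FPKM at E15.5 in Ebf2-EGFP- cells, ranges that overlap, and to 34.7 to 100 FPKM and 9.29 to 29.7 FPKM in Ebf2-EGFP+ cells, and the part of blood cells in other members was not tested. Leaving the erythroid and meningeal lists out gave 547 rising and 672 falling members. That count only drops the genes of these lists, so it cannot show the part of such cells in other members.

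Markers of the ganglionic eminence and of interneurons had 6 falling and 1 rising members among 19. In Ebf2-EGFP- cells 12 of the 19 were lower and 4 higher by at least 1, and in Ebf2-EGFP+ cells 7 and 1. *Dlx5*, a homeobox factor of that region, had 24.8 and 35.1 FPKM at E11.5, 9 and 6.99 FPKM at E13.5 and 9.12 and 6 FPKM at E15.5 in Ebf2-EGFP- cells, *Isl1* changed by -2.34 in Ebf2-EGFP+ and -3.40 in Ebf2-EGFP- cells, *Dlx6* by -1.71 in Ebf2-EGFP+ and -2.55 in Ebf2-EGFP- cells and *Gad2* by -1.22 in Ebf2-EGFP+ and -1.67 in Ebf2-EGFP- cells. *Npy*, a neuropeptide of interneurons, was rising by 3.93 in Ebf2-EGFP+ and 2.02 in Ebf2-EGFP- cells. The summed level of these markers in Ebf2-EGFP- cells was 318 to 397 FPKM at E11.5 and 190.3 to 259.8 FPKM at E15.5, and the share of tissue from outside the dorsal cortex was not tested. Of 8 markers of astrocytes and oligodendrocyte precursors 3 were falling (*Olig2*, *Pdgfra* and *Gja1*) and 1 rising (*Aldoc*). Of 9 endothelial and pericyte markers *Rgs5* was rising and *Pdgfrb* falling, and of 2 microglia and macrophage markers none was a member. Rising shares of the interneuron and endothelial lists were no higher than the 11.3% of all listed genes, and that of the astrocyte list was close to it. The falling share of the endothelial list was also no higher than that of all listed genes, so these counts do not set such lists apart.

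The E13.5 libraries did not choose the members and show when the change took place. The level at E13.5 lay between those of E11.5 and E15.5 in both populations for 456 of the 548 rising and 575 of the 680 falling members. The median rising member had completed 58.1% of its change by E13.5 in Ebf2-EGFP+ and 44.4% in Ebf2-EGFP- cells, and the median falling member 63% and 41.1%. A limma fit over all genes tested E13.5 minus the midpoint of the outer stages in each population and the difference between the populations, with Benjamini-Hochberg adjustment over the list and a call at an adjusted p under 0.05. These estimates are uncorrelated with the E15.5 minus E11.5 difference that the rule used.

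In Ebf2-EGFP+ cells more members called by the test were past the midpoint in their own direction than short of it. Among rising members 120 were above the midpoint (21.9%) and 30 below it (5.47%), beside 8.03% and 18.2% of all listed genes. Among falling members 9 were above (1.32%) and 183 below (26.9%). The median distance from the midpoint was 0.14 in rising and -0.21 in falling members and -0.11 in all listed genes. *Tiam2* was highest, at 2.23 (standard error 0.23, limma adjusted p = 6.15e-05), then *Rmrp*, *Adamts3*, *Ndrg1* and *Kcnn2*. *Ndrg1* was at 2.05 (standard error 0.19, limma adjusted p = 3.69e-05), *Adamts3*, a protease that cleaves Reelin, at 2.08 (standard error 0.23, limma adjusted p = 9.52e-05) and *Kcnn2*, a calcium-activated potassium channel, at 1.93 (standard error 0.15, limma adjusted p = 2.71e-05). For the last the E13.5 libraries, at 20.02 and 21.1 FPKM, lay above those of E15.5, at 8.69 and 7.74 FPKM. The lowest were *Barhl2*, *Col1a1*, *Fezf1*, *Lgals1* and *Chrna4*. *Barhl2*, a homeobox factor, had 36.1 and 30.4 FPKM at E11.5, 2.35 and 1.52 FPKM at E13.5 and 4.21 and 4.47 FPKM at E15.5 in Ebf2-EGFP+ cells and an estimate of -2.22 (standard error 0.23, limma adjusted p = 6.14e-05). *Chrna4*, a nicotinic receptor subunit, was at -1.91 (standard error 0.14, limma adjusted p = 2.36e-05). Without the second E13.5 Ebf2-EGFP+ library the calls among members went from 342 to 177, with 73 rising members above and 83 falling members below the midpoint. Median-of-ratios scaling moved the split over all listed genes from 390 above and 886 below to 531 and 772, and left that of the members on the same sides, with 141 rising above and 22 below and 21 falling above and 171 below.

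In Ebf2-EGFP- cells the picture was mixed. Among rising members 66 were above (12%) and 87 below the midpoint (15.9%), and among falling members 37 above (5.44%) and 105 below (15.4%), beside 10% above and 12.9% below of all listed genes. For falling members the median distance of 0.15 had the opposite sign to the majority of calls. The medians turned without the first E13.5 Ebf2-EGFP- library. Without it the calls among members went from 295 to 192, and the median of the rising members from -0.10 to 0.03 and of the falling members from 0.15 to -0.04, with 69 rising members above and 24 below. Its radial glia markers summed to 1765 FPKM, beside 1189 FPKM in the second library, and the part of this difference was not tested. Over the libraries left out in turn the falling members called above the midpoint ranged from 6 to 140. Without the first E15.5 Ebf2-EGFP- library the falling members above the midpoint were those 140, and with median-of-ratios scaling 94, against 98 and 101 below it. *Neurod6* was furthest above, at 3.38 (standard error 0.19, limma adjusted p = 2.3e-06), and *Neurod2* was at 2.54 (standard error 0.20, limma adjusted p = 1.69e-05), both neuronal factors that had reached most of their E15.5 level. *Aldoc*, a glycolytic enzyme of radial glia and astrocytes, was at 2.60 (standard error 0.35, limma adjusted p = 0.000331), with 4.97 and 9.25 FPKM at E11.5, 123 and 84.5 FPKM at E13.5 and 59.2 and 21.7 FPKM at E15.5. *Cabp1*, a calcium-binding protein, was at 1.98 (standard error 0.21, limma adjusted p = 8.74e-05). *Rmrp*, the RNA of a mitochondrial RNA processing enzyme, was above the midpoint in both populations (estimates 2.09 and 2.51), but its E13.5 Ebf2-EGFP- libraries read 38.9 and 179 FPKM, far apart, its Ebf2-EGFP+ call was lost without any of 5 libraries (limma adjusted p 0.0578 to 0.189) and its Ebf2-EGFP- call without the second E13.5 library (0.155). The lowest were the globin genes *Hba-x*, *Hbb-bh1* and *Hbb-y*, then *Nkx2-1*, a factor of the ventral forebrain, at -2.36 (standard error 0.13, limma adjusted p = 2.3e-06), and *Col1a2*, at -2.23 (standard error 0.20, limma adjusted p = 3.7e-05).

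**Figure D4:**
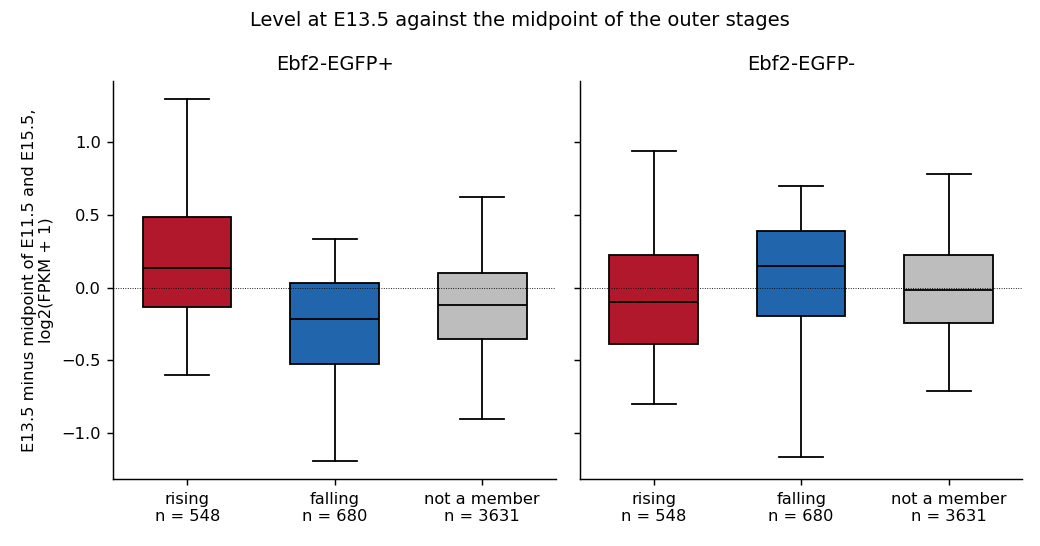
Boxes give the distance of the E13.5 level from the midpoint of E11.5 and E15.5 in log2(FPKM + 1) over rising, falling and other listed genes, with Ebf2-EGFP+ cells on the left and Ebf2-EGFP- cells on the right. Boxes span the quartiles with the median as a line, and whiskers reach the 5th and 95th percentiles. In Ebf2-EGFP+ cells the median is 0.14 for rising and -0.21 for falling members, and in Ebf2-EGFP- cells it is -0.10 and 0.15.

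The difference between the populations in the distance from the midpoint was itself tested. This distance is on the log2 scale, so it depends on the size of a change as well as on its timing. The change was larger in Ebf2-EGFP- cells in 310 of the 548 rising and 417 of the 680 falling members. Rising members were further above the midpoint in Ebf2-EGFP+ than in Ebf2-EGFP- cells in 48 genes (8.76%) and less so in 10 (1.82%), beside 3.85% and 5.56% of all listed genes. Falling members were further below in Ebf2-EGFP+ cells in 41 (6.03%) and less so in 8 (1.18%). The 6.03% is close to the 5.56% called lower over all listed genes. The estimate was above 0 in 400 of 548 rising and below 0 in 554 of 680 falling members. Of all 4859 listed genes 1827 were above 0 and 3032 below. Same-numbered libraries vary together, and with the replicate number as a block the members called were 333 in place of 107, that is 139 rising members above (25.4%) and 22 below (4.01%), and 27 falling members above (3.97%) and 145 below (21.3%). Calls were more frequent among all listed genes too with the block, 9.59% above and 16.0% below. Without the second E13.5 Ebf2-EGFP+ library 31 members were called, without the first E13.5 Ebf2-EGFP- library 38, and without the first E15.5 Ebf2-EGFP- library 176. Without the first or the second E11.5 Ebf2-EGFP+ library the count was 64 or 71, and without the first E11.5 Ebf2-EGFP- library 69. *Mpped1*, a metallophosphoesterase of the cortex, showed the earlier rise, at 7.62 and 7.2 FPKM at E11.5, 154 and 187 FPKM at E13.5 and 318 and 324 FPKM at E15.5 in Ebf2-EGFP+ cells and at 24.8 and 19.9 FPKM at E11.5, 48.8 and 91.8 FPKM at E13.5 and 242 and 330.1 FPKM at E15.5 in Ebf2-EGFP- cells. Its difference was 1.97 (standard error 0.31, limma adjusted p = 0.00411). *Camkv*, a kinase-like protein of vesicles, had 1.94 (standard error 0.21, limma adjusted p = 0.000796), with 5.07 and 5.45 FPKM at E11.5, 3.31 and 4.32 FPKM at E13.5 and 11.7 and 15.2 FPKM at E15.5 in Ebf2-EGFP- cells, where the E13.5 libraries were below those of E11.5, and 1.65 and 2.08 FPKM at E11.5, 24.6 and 24.5 FPKM at E13.5 and 60.9 and 58.9 FPKM at E15.5 in Ebf2-EGFP+ cells. *Hs6st2*, a heparan sulfate sulfotransferase, had 1.90 (standard error 0.25, limma adjusted p = 0.00206). *Dync1i1* (1.88), *Sla* (1.81), *Nos1* (1.71), *Ndrg1* (1.59) and *Camk2b* (1.30) of the largest rising changes passed the test in the same direction. *Neurod6* went the other way, at -1.91 (standard error 0.27, limma adjusted p = 0.0025), as did *Ndrg2*, a gene of astrocytes, at -1.79 (standard error 0.28, limma adjusted p = 0.00388), with E13.5 values of 13 and 11.2 FPKM in Ebf2-EGFP+ and 53.4 and 42.7 FPKM in Ebf2-EGFP- cells.

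Direction over time went with the difference between the populations at E13.5, a comparison that uses none of the libraries of the rule. Of 548 rising members 468 were higher in Ebf2-EGFP+ cells (85.4%) and 21 lower (3.83%), and of 680 falling members 555 were lower (81.6%) and 17 higher (2.50%), beside 32.1% higher and 43.5% lower of all listed genes. The listed genes were chosen by the authors for a difference between these populations, so the shares are high by construction. Median differences were 1.07 in rising, -1.34 in falling members and -0.19 in all listed genes. With median-of-ratios scaling all listed genes were 1900 higher and 1752 lower in place of 1559 and 2114, while members were 493 and 17 rising and 30 and 512 falling. Rising members were thus mostly genes higher in the sorted neurons at E13.5, and falling members mostly genes higher in the remaining cells. By group means, without a test, the outer stages had the same split. Rising members were higher in Ebf2-EGFP+ cells in 469 genes at E11.5 and 479 at E15.5. Falling members were higher in Ebf2-EGFP- cells in 591 and 614 genes. *Reln* had the largest difference, 5.12 (standard error 0.33, limma adjusted p = 1.42e-06), and then *Dync1i1* (3.45 ± 0.30 standard error), *Ppp2r2c* (3.22 ± 0.19), the calcium channel gene *Cacna1e* (2.995 ± 0.23) and *Camk2b* (2.97 ± 0.24). *B3gat1* was at 1.83 (standard error 0.18, limma adjusted p = 9.43e-06) and *Atp6v0c* at 0.51 (standard error 0.15, limma adjusted p = 0.00831). *Zic1* was among the 17 falling members that were higher in Ebf2-EGFP+ cells, at 0.95 (standard error 0.29, limma adjusted p = 0.0108). On the falling side the lowest were *Hes1*, the Notch target that keeps progenitors from differentiating, at -4.11 (standard error 0.32, limma adjusted p = 3.55e-06), and *Zfp36l1*, which destabilizes messenger RNA, at -3.89 (standard error 0.31, limma adjusted p = 3.66e-06). All 42 falling mitosis genes, all 18 falling replication genes and all 9 falling radial glia genes were called lower in Ebf2-EGFP+ cells, and all 18 rising vesicle genes higher. The 21 rising members called lower included the globins *Beta-s* and *Hbb-b1*, *Aldoc* (-4.25 ± 0.41), *Npy* (-2.36 ± 0.33), *Rgs5* (-2.11 ± 0.28), *Bcan* (-1.95 ± 0.25), *Ndrg2* (-1.90 ± 0.23) and *Rlbp1* (-1.18 ± 0.16).

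**Figure D5:**
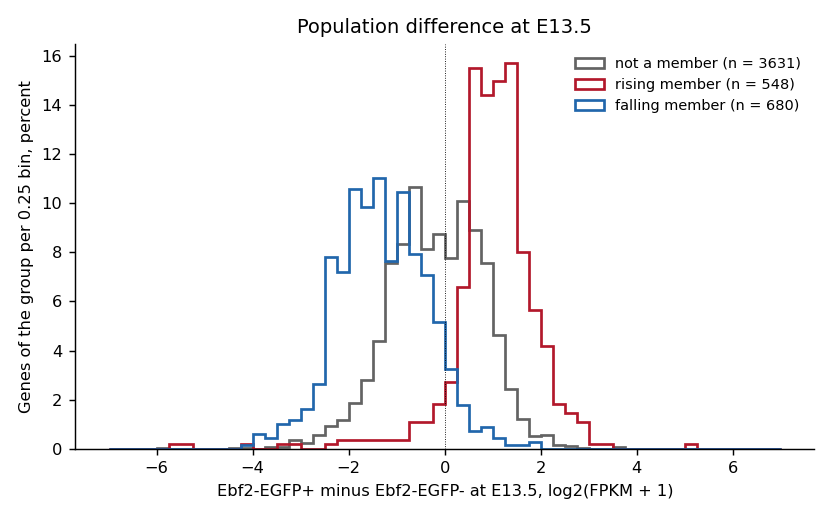
The histogram gives the difference between Ebf2-EGFP+ and Ebf2-EGFP- cells at E13.5 in log2(FPKM + 1), as percent of the genes in each group per bin of 0.25. Rising members (red) centre on 1.07 and falling members (blue) on -1.34, with the other listed genes (grey) spread over both sides of 0.

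Among lncRNAs the 12 rising members had median changes of 2.19 in Ebf2-EGFP+ and 1.99 in Ebf2-EGFP- cells. *Gm17750*, an intergenic RNA on chromosome 13 of GRCm38 from 84025297 to 84064772, had the largest shared change. It was measured at 4.63 and 4.21 FPKM at E11.5, 28.8 and 25.7 FPKM at E13.5 and 65 and 105 FPKM at E15.5 in Ebf2-EGFP+ cells and at 11.8 and 9.16 FPKM at E11.5, 28.4 and 31.5 FPKM at E13.5 and 62.2 and 92.1 FPKM at E15.5 in Ebf2-EGFP- cells. Its E11.5 and E15.5 libraries did not overlap, and the difference between the populations at E13.5, -0.13 (standard error 0.28, limma adjusted p = 0.727), did not pass the test. *9130024F11Rik*, with a transcript annotated as antisense, had both of its listed transcripts among the members, with changes of 2.21 in Ebf2-EGFP+ and 4.31 in Ebf2-EGFP- cells for one and 2.23 in Ebf2-EGFP+ and 3.81 in Ebf2-EGFP- cells for the other. These transcripts overlap each other, so their reads can be split between them. *Gm12063* changed by 2.21 in Ebf2-EGFP+ and 2.33 in Ebf2-EGFP- cells, *2900009J06Rik* by 2.17 in Ebf2-EGFP+ and 2.10 in Ebf2-EGFP- cells and *1500035N22Rik* by 2.204 in Ebf2-EGFP+ and 1.57 in Ebf2-EGFP- cells. *Gm26917* was rising too, but its libraries varied widely, with 19.7 and 91.2 FPKM in Ebf2-EGFP- cells at E13.5. The 4 falling members were *H19*, *Gm20460*, *Gm9581* and *AI849053*. GENCODE M21 holds a later version of the *Gm9581* transcript and gives it as protein coding, as it does for the rising member *A830039N20Rik*. The *H19* transcript went from 92.8 and 81 FPKM at E11.5 to 8.78 and 4.92 FPKM at E15.5 in Ebf2-EGFP- cells and from 25.8 and 35 to 0.682 and 0.58 FPKM in Ebf2-EGFP+ cells. At E13.5, 6 rising members were higher and 4 falling members lower in Ebf2-EGFP+ cells by the same limma test, beside 56.0% of the 200 transcripts called in either direction. Against the midpoint 4 of the 16 were called in Ebf2-EGFP+ and 3 in Ebf2-EGFP- cells, beside 20.5% and 16.0% of all. None of the 16 was called for the difference between the populations, where limma gave 3 at an unadjusted p under 0.05 and called 5% of all transcripts above and 6.5% below, and 3 of the 16 were called with the replicate number as a block. Among the members called against the midpoint was *4833422C13Rik*, at -0.85 (standard error 0.22, limma adjusted p = 0.02) in Ebf2-EGFP+ and -0.75 (standard error 0.22, limma adjusted p = 0.0425) in Ebf2-EGFP- cells, and *H19*, at -1.16 (standard error 0.28, limma adjusted p = 0.013) and -1.04 (standard error 0.28, limma adjusted p = 0.0289). Both transcripts lay below the midpoint in either population at this stage.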

How the data were processed

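Bulk RNA-seq covered 12 libraries, 2 in each of 6 groups, and polyadenylated RNA was captured on oligo-dT beads. The authors aligned reads to mm10, the same assembly as GRCm38, with TopHat2 2.0.8b and computed FPKM with Cufflinks 2.2.0, per the labels and the methods. The deposited tables hold these FPKM for 4859 coding genes and 200 lncRNA transcripts that the authors reported as different between the populations. Their means, fold changes and p-values in the same tables were not used. FPKM keep no depth per library and were not scaled further, so no counting error could be given, and genes with near-identical copies or overlapping transcripts share reads.

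Values were taken as log2(FPKM + 1), which understates the changes of weakly expressed genes. Members changed by at least 1 in the same direction from E11.5 to E15.5 in both populations, and no filter on low values was used. Of the members, 547 rising and 668 falling genes averaged 1 FPKM or more over the 12 libraries. The members and all lists were chosen with earlier results of these data known. Limma 3.58.1 in R 4.3.3 fitted all 12 libraries as 6 groups without covariates and with a variance trend, over each table as a whole, with two-sided p-values adjusted by the Benjamini-Hochberg method. The fit was checked on simulated data beforehand. Replicates are separate pools of embryos, and p-values measure the spread between 2 libraries per group.

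Replicate numbers are shared by the populations of a stage. The correlation, between same-numbered libraries, of the deviations from the mean of the group was 0.43, 0.53 and 0.43 across coding genes and 0.27, 0.38 and 0.44 across lncRNAs, all above 0.1, so the numbers were taken as pairs for a fit with a block. Named genes are the 4 markers, the 12 members in each direction with the largest smaller change among those without overlap of libraries, up to 8 lncRNAs in each direction by that measure, up to 4 members per list and direction, the 5 members with the highest and the lowest estimate among those called in each contrast, and the genes next to the threshold. Other members named without values, and *Mki67* and *Nusap1*, fall outside this rule and were chosen with their values known, and some genes that the rule names are not reported here. Promoters came from RefSeq (GRCm38.p6) and gene positions from GENCODE M21. Alternatives were a pseudocount of 0.1, median-of-ratios scaling, a mean of at least 1 FPKM, the rule in every library or on the average of the populations, no variance trend, the replicate block, one population per fit, an adjusted p under 0.01, each library left out, and, added after seeing the data, the set without erythroid and meningeal markers.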

Additional observations from a re-analysis of the deposited data

Results flagged for a closer look

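The members named here differed between the populations in the distance of the E13.5 level from the midpoint of the outer stages, as tested by the interaction in the limma fit, and are the 5 highest and 5 lowest estimates among those called. The estimates, Ebf2-EGFP+ minus Ebf2-EGFP-, were 2.43 for *Hbb-bh1*, 2.34 for *Hba-x*, 1.97 for *Mpped1*, 1.94 for *Camkv*, 1.90 for *Hs6st2*, -1.91 for *Neurod6*, -1.88 for *Barhl2*, -1.83 for *Tppp3*, -1.79 for *Ndrg2* and -1.68 for *Dach1*. Embryonic globin genes lead the positive side, and their Ebf2-EGFP- level dropped from 464 and 1007 FPKM at E11.5 to 1.11 and 1.68 FPKM at E13.5 for *Hba-x*, and from 101 and 147 to 0.271 and 0.409 FPKM for *Hbb-bh1*. Their calls were lost, with adjusted p of 0.0564 to 0.0696, without the second E13.5 Ebf2-EGFP+ or the first E13.5 Ebf2-EGFP- library. Without either of these libraries the calls of *Tppp3* (adjusted p = 0.0617 and 0.0565) and *Dach1* (0.119 and 0.110) were lost as well, and that of *Dach1* also without the first E11.5 Ebf2-EGFP+ or the second E11.5 Ebf2-EGFP- library (0.0526 and 0.0501, all from limma). *Barhl2* was at 1.55 and 4 FPKM at E11.5, 0.61 and 0.465 FPKM at E13.5 and 0.0653 and 0.0498 FPKM at E15.5 in Ebf2-EGFP- cells and *Tppp3* at 8.49 and 4.21 FPKM at E11.5, 6.16 and 4.53 FPKM at E13.5 and 2 and 1.9 FPKM at E15.5. *Dach1*, a factor of progenitors, kept 20.3 and 14.7 FPKM at E13.5 in Ebf2-EGFP- cells and had 8.37 and 5.61 FPKM in Ebf2-EGFP+ cells. No cause of these differences was tested.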

How the results depend on the processing

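Some directions turned. In Ebf2-EGFP- cells the rising members called went from 66 above and 87 below the midpoint to 69 and 24 without the first E13.5 library, with medians of all rising members going from -0.10 to 0.03 and of falling members from 0.15 to -0.04. The falling members called went from 37 and 105 to 140 and 98 without the first E15.5 library. Scaling turned 548 rising and 680 falling members into 746 and 501. Averaging the change over both populations, instead of asking for it in each, gave 1002 rising and 1230 falling coding members, 2232 in all, and 31 and 23 lncRNAs, 54 in all. A pseudocount of 0.1 gave 1146 falling and 1862 coding members in all, and 22 rising and 28 falling lncRNAs, 50 in all. Asking for the change in every library left 7 rising and 2 falling lncRNAs, 9 in all, and scaling left 1 falling lncRNA. With a library left out, coding members ranged over 510 to 573 rising and 657 to 710 falling, 1178 to 1283 in all, and lncRNAs over 10 to 16, 2 to 6 and 13 to 20. In the same way the members called were 177 to 371 above or below the midpoint in Ebf2-EGFP+ cells, 192 to 399 in Ebf2-EGFP- cells, 31 to 176 for their difference and 939 to 1075 for the populations at E13.5, and among lncRNAs 1 to 5, 0 to 3, 0 to 2 and 6 to 11. An adjusted p under 0.01 left 154 members called in Ebf2-EGFP- cells and 26 for the difference, and 1 and 0 lncRNAs called in Ebf2-EGFP+ and Ebf2-EGFP- cells. For lncRNAs in Ebf2-EGFP- cells the count of 3 became 1 with scaling and 0 with only that population in the fit. With the replicate block the difference of the midpoints was called in 333 members (as a random effect) or 340 (as a fixed one) against 107, and in 3 or 3 lncRNAs against 0, and the block moved no other count of calls by more than 1.5 times. The cause of these shifts was not tested, other than that a left-out library lowers the degrees of freedom of the fit. FPKM carry no counts per library, so precision rests on 2 libraries per group.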
